A study of Mus musculus with 2 samples.

Results

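The 80 protein-coding genes for the proteins of the cytosolic ribosome were examined for Etv4 and Etv5 regions in EpRas cells. They were taken from the 21938 protein-coding genes of the nuclear chromosomes in GENCODE M21 by their symbols, namely Rpl or Rps followed by a number with at most 1 ending letter, plus Rpsa, Rplp0, Rplp1 and Rplp2. Kinases named Rps6k, pseudogenes and predicted genes were left out. Of the 80 genes, 49 encode proteins of the large 60S subunit and 31 encode proteins of the small 40S subunit. Genes that fall just outside this naming rule, such as Rps3a1, Fau and Rack1, are described separately.

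EpRas is a line of mouse mammary gland epithelial cells (EpH4) transformed with oncogenic Ras. After culture in 4% serum, TGF-β3, a cytokine, was added at 1 ng/ml for 1.5 h, and chromatin immunoprecipitation followed by sequencing (ChIP-seq) was carried out with an antibody to Etv4 in 1 library and an antibody to Etv5 in the other. The antibodies were a rabbit polyclonal and a mouse monoclonal, respectively, and both libraries came from the same treated line. Neither untreated cells nor a control precipitation were analysed here. The deposited lists held 13636 Etv4 regions and 8297 Etv5 regions, and with 1 library per antibody no difference can be set against a spread between replicates. No test was therefore made. Shares are given with exact (Clopper-Pearson) 95% binomial intervals, which cover counting error only and treat genes as independent, and the depth behind the regions is unknown.

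Ribosomal proteins assemble with ribosomal RNA into the particles that translate mRNA, and they are needed in near equal amounts. Their genes are short, strongly expressed in growing cells and typically have promoters without a TATA box, and transcription starts within a run of pyrimidines that gives the mRNA its terminal oligopyrimidine (TOP) tract. Etv4 and Etv5 are ETS family transcription factors, which recognise DNA with a GGAA core.

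The promoter sequences are shown first, because the ETS pattern, CAGGAAGT or CCGGAAGT on either strand, is the sequence that the regions were compared with. All sequences are from GRCm38 (mm10), written 5′ to 3′ on the strand of the gene, and capitals mark the ETS pattern. The first 3 run from 150 to 11 bases before the annotated start. Rps6, which encodes the 40S protein phosphorylated by the S6 kinases, had overlapping Etv4 and Etv5 regions over its pattern. Rpl37 had an Etv4 region over its 2 patterns. Rpsa, which encodes a 40S protein also known as the laminin receptor, had the pattern, read as ACTTCCGG because it lies on the opposite strand, and no region of either list within 2 kb of its start.
Rps6 chr4:86857423-86857562 minus strand: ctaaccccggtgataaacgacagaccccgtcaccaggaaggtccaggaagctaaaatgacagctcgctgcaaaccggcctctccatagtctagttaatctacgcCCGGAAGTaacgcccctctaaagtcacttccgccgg
Rpl37 chr15:5116495-5116634 plus strand: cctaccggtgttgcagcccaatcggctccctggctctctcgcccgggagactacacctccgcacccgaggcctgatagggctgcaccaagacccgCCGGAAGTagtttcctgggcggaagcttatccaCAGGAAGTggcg
Rpsa chr9:120127539-120127678 plus strand: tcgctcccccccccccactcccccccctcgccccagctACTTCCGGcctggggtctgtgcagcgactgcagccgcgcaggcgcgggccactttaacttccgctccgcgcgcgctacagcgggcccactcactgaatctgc

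The Etv4 list had a region at the start of most ribosomal protein genes. A gene was counted when the midpoint of a region lay within 2 kb of the start of its representative transcript. By this rule 59 of 80 genes (73.8%, interval 62.7 to 83%) had an Etv4 region, compared with 15.7% of all protein-coding genes. Among the 8654 protein-coding genes with a CpG-rich start (at least 55% GC and a ratio of observed to expected CpG of at least 0.6, from 250 bases before to 50 after the start), 26.3% had one (interval 25.4 to 27.3%), and among the 7057 genes with a span of 1 to 10 kb, 15.1% had one. Both values lie below the interval of the ribosomal protein genes. Of the 80 genes, 40 have a CpG-rich start themselves, and 34 of these 40 had an Etv4 region (85%, interval 70.2 to 94.3%). An Etv4 region covered the start base itself in 47 of 80 genes (58.8%, interval 47.2 to 69.6%), against 10.3% of all protein-coding genes.

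The Etv5 list touched far fewer of these genes. Etv5 regions were present at the start of 14 of 80 genes (17.5%, interval 9.91 to 27.6%), compared with 8.78% of all protein-coding genes and 14.9% of those with a CpG-rich start. Among the 40 ribosomal protein genes with a CpG-rich start, 7 had an Etv5 region (17.5%, interval 7.34 to 32.8%), and the 14.9% lies inside this interval and that of the 80 genes. The start base was covered in 10 of 80 genes (12.5%, interval 6.16 to 21.8%), against 4.37% of all protein-coding genes. The Etv4 list is the longer one. With as many of the longest Etv4 regions as there are Etv5 regions, 36 of 80 genes (45%, interval 33.8 to 56.5%) still had an Etv4 region at the start, beside 9.14% of all protein-coding genes. The antibodies differ as well, and their part in the difference was not tested.

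Regions of both lists were present at the start of 13 of 80 genes (16.2%, interval 8.95 to 26.2%), compared with 5.11% of all protein-coding genes and 8.69% of those with a CpG-rich start. They overlapped by at least 1 bp in 11 of 80 genes (13.8%, interval 7.07 to 23.3%), compared with 4.52% of all protein-coding genes and 7.51% of those with a CpG-rich start, the latter inside the interval. Among the 40 ribosomal protein genes with a CpG-rich start, both were present in 7 (17.5%, interval 7.34 to 32.8%) and overlapped in 5 (12.5%, interval 4.19 to 26.8%), and these intervals include the 8.69% and the 7.51%. Thus 46 genes had Etv4 only, 13 had both, 1 had Etv5 only and 20 had neither. Of the 59 genes with Etv4 at the start, 22% also had Etv5 (interval 12.3 to 34.7%), a lower value than the 32.6% among the 3436 protein-coding genes with Etv4 at the start (interval 31 to 34.2%), which lies inside the wider interval. Of the 14 genes with Etv5, 13 also had Etv4 (92.9%, interval 66.1 to 99.8%), whereas this was 58.1% among the 1927 protein-coding genes with Etv5 at the start (interval 55.9 to 60.3%). The share with Etv4 among all 80 genes, 73.8%, lies inside the interval of the 14 genes. Rps3 was the 1 gene where Etv5 stood without Etv4.

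The 46 genes with Etv4 only included Rpl10, Rpl10a, Rpl12, Rpl13, Rpl15, Rpl18, Rpl19, Rpl21, Rpl23, Rpl26, Rpl27, Rpl28, Rpl29, Rpl3, Rpl30, Rpl36, Rpl36a, Rpl37, Rpl37a, Rpl4, Rpl5, Rpl6, Rpl7, Rpl9, Rplp1, Rplp2, Rps12, Rps14, Rps15, Rps15a, Rps16, Rps18, Rps19, Rps21, Rps23, Rps24, Rps25, Rps26, Rps27l, Rps28, Rps29, Rps7 and Rps9. The 13 genes with both were Rpl13a, Rpl23a, Rpl27a, Rpl34, Rpl35a, Rpl41, Rpl7a, Rpl8, Rplp0, Rps10, Rps2, Rps27a and Rps6.

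**Figure D1:**
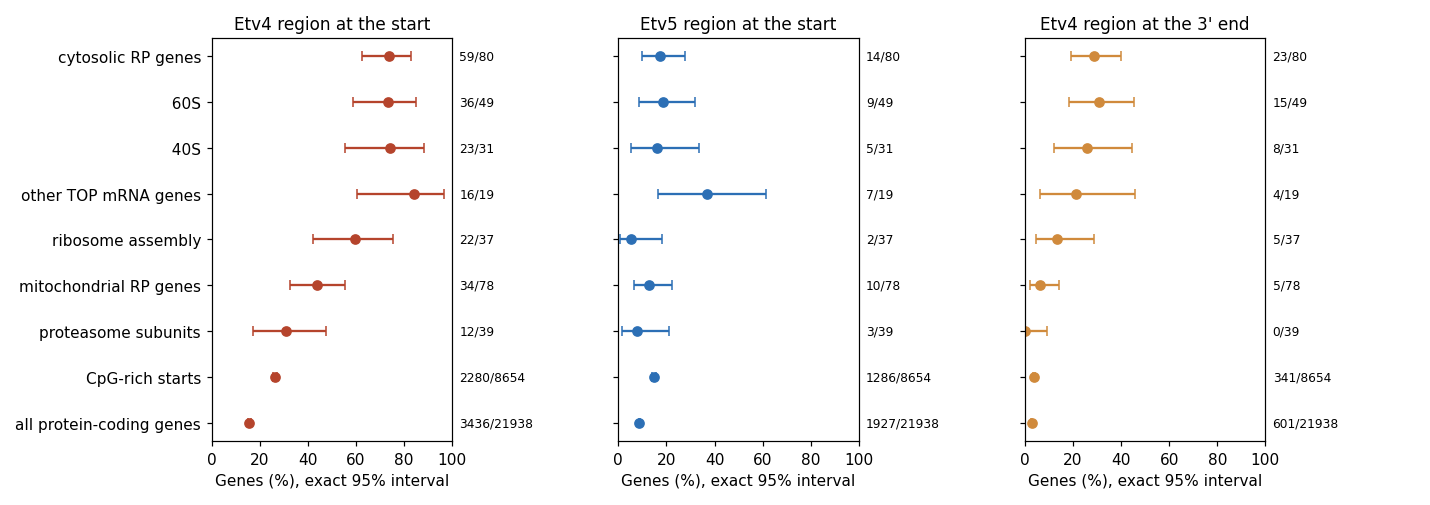
Share of genes (x axis, %) with an Etv4 region at the start, an Etv5 region at the start and an Etv4 region at the 3′ end, for the gene sets named on the left, where points are shares, lines are exact 95% intervals and the fractions give genes called over genes counted. The cytosolic ribosomal protein genes stand at 73.8%, 17.5% and 28.8%, and all protein-coding genes at 15.7%, 8.78% and 2.74%.

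The shares of the subunits lay close together. Etv4 was at the start of 36 of 49 genes of the 60S subunit (73.5%, interval 58.9 to 85.1%) and 23 of 31 genes of the 40S subunit (74.2%, interval 55.4 to 88.1%), and Etv5 at 9 of 49 (18.4%) and 5 of 31 (16.1%). The intervals overlap in both cases.

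In the large subunit, the stalk that recruits translation factors is built from the products of Rplp0, Rplp1 and Rplp2, and all 3 genes had an Etv4 region at the start, with midpoints 12 bp upstream, 45 bp downstream and 240 bp downstream of the start. Rplp0 also had an Etv5 region. Rpl5 and Rpl11 encode the proteins that bind 5S ribosomal RNA and that, as a free particle, inhibit Mdm2. Rpl5 had an Etv4 region at its start and Rpl11 had none of either list, its nearest Etv4 region lying 57317 bp away. Among the 8 listed genes for proteins around the exit of the peptide tunnel, Etv4 was present at Rpl19, Rpl23a and Rpl26 and not at Rpl17, Rpl22, Rpl31, Rpl35 or Rpl39. This count of 3 of 8 (37.5%, interval 8.52 to 75.5%) has an interval that includes both the share of all 80 genes and that of all protein-coding genes.

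In the small subunit, the proteins that line the mRNA channel or sit near it are encoded by Rps2, Rps3, Rpsa, Rps9 and Rps23. Etv4 was present at the start of Rps2, Rps9 and Rps23. Rps3, whose product forms part of the mRNA entry site, was the 1 gene with an Etv5 region at the start (332 bp long, midpoint 748 bp downstream, in an intron) and no Etv4 region there. Of 16 listed genes mutated in Diamond-Blackfan anaemia, an inherited failure of red cell production, 12 had Etv4 at the start (75%, interval 47.6 to 92.7%) and 2 had Etv5, namely Rpl35a and Rps10. Those without Etv4 included Rpl11, Rpl31 and Rps27.

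Of the 4 paralogs among the 80 genes, 1 had an Etv4 region at the start (25%, interval 0.631 to 80.6%), and this interval includes both the share of all 80 genes and that of all protein-coding genes. Rpl3l, expressed in muscle, and Rpl10l and Rpl39l, known from the testis, had no region of either list at the start, and Rps27l, a widely expressed copy of Rps27, had an Etv4 region centred 2 bp from its start. The parent Rps27 had none. Of the genes just outside the naming rule, Rps3a1, Fau, Rack1 and Rpl22l1 had an Etv4 region at the start, and Rpl36al and Rpl7l1 did not, although Rpl7l1 had 2 Etv4 regions at its 3′ end. Rps3a1 encodes a 40S protein, Fau encodes a ribosomal protein fused to a ubiquitin-like protein, and Rack1 encodes a scaffold protein of the 40S subunit. Only Rack1 among these had an Etv5 region at the start, with its midpoint 259 bp upstream.

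Other gene sets of translation and protein turnover were counted for comparison. Among 19 other genes with TOP mRNAs, mostly translation factors such as Eef1a1 and Eef2 and including Rack1 and Fau, 16 had Etv4 at the start (84.2%, interval 60.4 to 96.6%) and 7 had Etv5 (36.8%, interval 16.3 to 61.6%). Among 37 genes for ribosome assembly and RNA polymerase I, 22 had Etv4 (59.5%, interval 42.1 to 75.2%) and 2 had Etv5. Mitochondrial ribosomal protein genes had Etv4 in 34 of 78 cases (43.6%, interval 32.4 to 55.3%), and proteasome subunit genes in 12 of 39 (30.8%, interval 17 to 47.6%). The intervals of these last 2 sets end below that of the cytosolic ribosomal protein genes, and those of the TOP and assembly genes overlap it.

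The Etv4 regions at the starts were then described one by one. They numbered 72, with 1 region in 49 genes and 2 or more in 10 genes (Rpl3, Rpl8, Rpl12, Rpl36, Rpl41, Rps2, Rps12, Rps21, Rps27a and Rps28), and 55 of 72 midpoints (76.4%) lay within 500 bp of the start. The median midpoint was 86.5 bp downstream of the start (quartiles -45.2 and 263 bp), whereas over all protein-coding genes it was 4 bp downstream. Midpoints fell in an exon in 38 cases, in an intron in 15 and outside the gene in 19. The median length was 561 bp (quartiles 421 and 978 bp), beside 562 bp for all Etv4 regions at starts (quartiles 403 and 741 bp). For 7 of 72 regions the start of another protein-coding gene was nearer. In 4 of 72 the midpoint lay beyond the 3′ end of the gene, since Rpl36, Rps21 and Rpl41 are short enough for their 3′ end to fall within 2 kb of the start.

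The longest of the start regions covered the starts of Rpl7 (1621 bp, chr1:16103826-16105446) and Rpl10a (1524 bp, chr17:28328079-28329602), whose products are proteins of the 60S subunit. Each region carries a number in its list that the files do not explain. The lowest number among the start regions, 155 of 13636, belonged to Rps27a (chr11:29547512-29548548), which encodes a ribosomal protein fused to ubiquitin, and was followed by Rps29 (191), Rps12 (221) and Rpl21 (240). The median number of the 72 regions stood at 54% of the list (lower quartile 23.1%), beside 55.4% (lower quartile 33%) for all Etv4 regions at protein-coding starts.

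**Figure D2:**
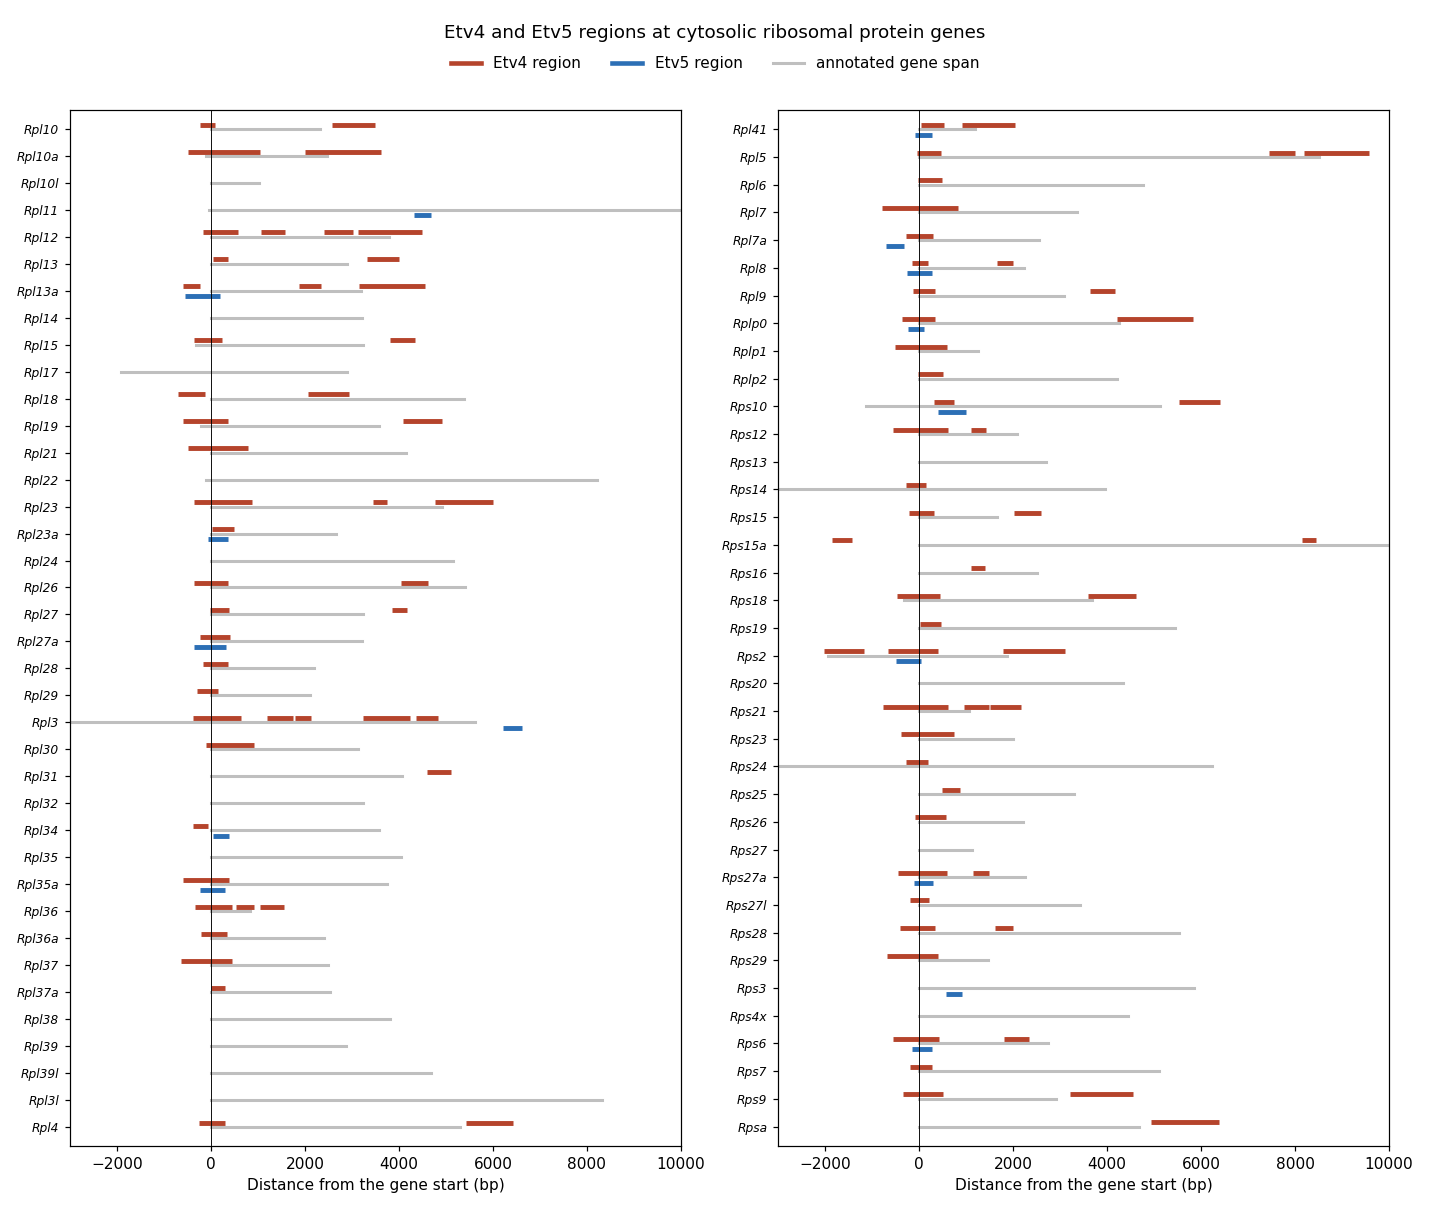
Of the 80 genes, 75 are drawn, each as a row from its start (x axis, bp, negative upstream, genes turned to run left to right, shown from 3 kb upstream to 10 kb downstream), with the annotated span in grey, Etv4 regions in red and Etv5 regions in blue where they were counted at the start, in the body or at the 3′ end. Etv4 regions gather at the start in most rows and past the end of the gene in many, and Etv5 regions stand at the start in 14 rows.

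The overlapping pairs of Etv4 and Etv5 regions were located as follows, in the order of their summed relative region numbers. At Rps2, whose product is part of the mRNA entry site, the Etv4 region chr17:24719398-24720467 (1070 bp) held the Etv5 region chr17:24719565-24720107 (543 bp), centred 131 and 227 bp upstream of the start. At Rpl35a, a 60S gene, the Etv4 region chr16:33055864-33056837 (974 bp) enclosed the Etv5 region chr16:33056218-33056751 (534 bp), and the start of Iqcg lay 160 bp from the Etv4 midpoint. At Rps27a the Etv5 region chr11:29547820-29548222 (403 bp) lay inside the 1037 bp Etv4 region, 88 bp downstream of the start, with the start of Clhc1 71 bp from its midpoint. In these 3 pairs the Etv5 region was the shorter one and lay within the Etv4 region.

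At Rpl27a, which encodes a 60S protein, the Etv4 region chr7:109518925-109519557 (633 bp) and the Etv5 region chr7:109518788-109519463 (676 bp) were shifted against each other, with midpoints 94 bp downstream and 22 bp upstream of the start. At Rps6 the Etv5 region chr4:86857130-86857556 (427 bp) lay within the Etv4 region chr4:86856986-86857977 (992 bp). At Rpl23a the pair measured 469 and 439 bp, with the Etv4 midpoint 260 bp and the Etv5 midpoint 154 bp into the gene. All 3 pairs reached into the first part of the gene.

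At Rps10 the pair (chr17:27634811-27635231 and chr17:27634540-27635137) lay 524 and 707 bp into the gene and did not cover its start. An annotated readthrough gene with Rps10 sequence, RPS10-NUDT3, starts 201 bp from the Etv4 midpoint. Rpl8 had midpoints 15 and 8 bp downstream of the start, the closest agreement of position among the 11 pairs, with 355 bp for Etv4 and 512 bp for Etv5. Rplp0 had an Etv5 region of 334 bp within an Etv4 region of 707 bp. At Rpl13a the Etv5 region (753 bp) covered the start whereas the Etv4 region (353 bp) ended upstream of it, with its midpoint 410 bp upstream. Rpl41, the shortest ribosomal protein, completed the list, with midpoints 283 and 93 bp downstream. The Etv4 and Etv5 regions at Rpl34 and Rpl7a did not overlap, their midpoints lying 220 bp upstream and 208 bp downstream at Rpl34 and 1 bp downstream and 511 bp upstream at Rpl7a.

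Seen from the regions, 11 of the 72 Etv4 regions at these starts overlapped an Etv5 region (15.3%, interval 7.88 to 25.7%), compared with 26.9% of the 3317 Etv4 regions at all protein-coding starts (interval 25.4 to 28.4%) and 37.8% of the whole nuclear list. Conversely, 11 of the 14 Etv5 regions overlapped an Etv4 region (78.6%, interval 49.2 to 95.3%), compared with 51.4% at all protein-coding starts and 63.1% of the whole Etv5 list, which both lie inside the interval. The Etv5 regions at these genes had a median length of 433 bp, beside 484 bp at all protein-coding starts.

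The genes without an Etv4 region at the start were not narrow misses of the distance rule. These 21 genes included Rpl10l, Rpl11, Rpl14, Rpl17, Rpl22, Rpl24, Rpl31, Rpl32, Rpl35, Rpl38, Rpl39, Rpl39l, Rpl3l, Rps3, Rps4x, Rps13, Rps20, Rps27 and Rpsa. The distance from their start to the nearest Etv4 midpoint had a median of 41891 bp, and 13 of them had an Etv4 region within 50 kb. The nearest was that of Rpl31, 4860 bp downstream and past its 3′ end, and the farthest that of Rpl39, 1949825 bp away on chromosome X. Just inside the rule, the regions of Rps15a and Rps16 were centred 1634 bp upstream and 1255 bp downstream of the start and were their only ones there. The nearest Etv5 region outside the rule was that of Rpl11, 4499 bp downstream.

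Genes with and without Etv4 at the start were compared in features that the rule does not use. A CpG-rich start was found in 34 of 59 genes with Etv4 (57.6%, interval 44.1 to 70.4%) and in 6 of 21 without (28.6%, interval 11.3 to 52.2%), and the median GC content of the start window was 56.3 and 53.7%. A protein-coding gene starting within 1 kb on the opposite strand was found for 10 of 59 genes with Etv4 (16.9%, interval 8.44 to 29%) and 0 of 21 without (interval 0 to 16.1%). Such a neighbouring start lies inside the 2 kb zone of the rule, so this feature is not independent of the count. The start of the nearest other protein-coding gene lay a median of 6519 bp from genes with Etv4 and 22484 bp from genes without. Small nucleolar RNA genes, which guide the modification of ribosomal RNA and lie in introns of many ribosomal protein genes, were present in 21 of 59 (35.6%) and 8 of 21 (38.1%). All pairs of intervals given here overlap.

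Ribosomal protein genes have many processed copies elsewhere in the genome, so that short reads from their exons may map to several places. The share of 36-base sequences with a further copy in the genome was therefore counted. Only exact copies were counted. No Etv4 region at a start exceeded 50% (0 of 72). The median was 1.31% (upper quartile 9.77%, maximum 43.3%), above the 0% (upper quartile 0%) of the 3317 Etv4 regions at all protein-coding starts. Over the 600 bp around the start the median share was 1.06% in genes with Etv4 and 1.59% in genes without, and it exceeded 10% in 9 of 59 and 7 of 21. Among the 16 genes above 10%, 9 had Etv4 (56.2%, interval 29.9 to 80.2%) and 0 had Etv5 (interval 0 to 20.6%). Its part in the missing regions was not tested.

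By chromosome, all ribosomal protein genes had Etv4 at the start on chromosome 5 (5 of 5, interval 47.8 to 100%, beside 15.6% of the protein-coding genes of that chromosome), on chromosomes 10 and 15 (4 of 4 each, interval 39.8 to 100%, beside 14.6% and 27.9%), and on chromosomes 8, 13 and 14, which hold 1 or 2 of them each. On chromosome 4 it was present at 1 of 5 genes (interval 0.505 to 71.6%, beside 17%), namely Rps6, and Rpl11, Rpl22 and Rps20 were among those without. Chromosome 7, which holds 14 of the 80 genes, had 11 with Etv4 (interval 49.2 to 95.3%, beside 9.34%). The intervals are wide and overlap one another.

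The 3′ ends were examined next. An Etv4 region was assigned to the 3′ end when its midpoint lay within 1 kb of the end of the gene and beyond 2 kb from the start. Such a region was present in 23 of 80 genes (28.8%, interval 19.2 to 40%), compared with 2.74% of all protein-coding genes and 3.91% of those with a span of 1 to 10 kb. Only 1 of 80 genes had an Etv5 region there (1.25%, interval 0.0316 to 6.77%), a share close to the 0.953% of all protein-coding genes. This was Rpl3, the 60S protein near the peptidyl transferase centre, with an Etv5 region of 418 bp centred 799 bp past the end, which overlapped an Etv4 region whose midpoint lay outside the zone. Both a start and a 3′ region of Etv4 were found in 21 of 80 genes (26.2%, interval 17 to 37.3%), against 1.23% of all protein-coding genes. Rpl31 and Rpsa had the 3′ region without one at the start. Other translation genes also had 3′ regions, in 4 of 19 TOP genes (21.1%, interval 6.05 to 45.6%) and 5 of 37 assembly genes (13.5%, interval 4.54 to 28.8%). They were found in 5 of 78 mitochondrial ribosomal protein genes (6.41%, interval 2.11 to 14.3%) and 0 of 39 proteasome genes (interval 0 to 9.03%).

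These 3′ regions numbered 24 and lay past the annotated end in 22 cases, with a median of 738 bp beyond it (quartiles 460 and 829 bp). Their median length was 1014 bp (quartiles 569 and 1351.8 bp), compared with 598 bp for all Etv4 regions at 3′ ends (quartiles 438 and 903 bp) and 561 bp at the starts of the ribosomal protein genes. The median region number stood at 26.4% of the list, compared with 50% for all Etv4 regions at 3′ ends. No 3′ region of Etv4 overlapped an Etv5 region (0 of 24, interval 0 to 14.2%), compared with 19.9% of the 569 Etv4 regions at 3′ ends of all protein-coding genes (interval 16.7 to 23.4%). None of the 24 exceeded 50% of repeated 36-base sequences. The median share was 4.03% (upper quartile 6.55%), compared with 0% (upper quartile 0.354%) for all Etv4 regions at 3′ ends.

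The longest 3′ regions included those of Rplp0 (1631 bp, chr5:115563670-115565300), Rpl10a (1619 bp, chr17:28330570-28332188), Rpsa (1456 bp, chr9:120132623-120134078), Rpl5 (1382 bp, chr5:107908695-107910076), Rpl12 (1354 bp, chr2:32964689-32966042), Rps9 (1351 bp, chr7:3707197-3708547) and Rps2 (1324 bp, chr17:24721844-24723167). Apart from Rpsa, each of these genes also had an Etv4 region at its start.

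Some of the 3′ regions lay at the start of a neighbour. Of the 24 regions, 8 had a midpoint within 2 kb of the start of another protein-coding gene (33.3%, interval 15.6 to 55.3%), for example Snapc5 at 29 bp beyond Rpl4 and B3galt4 at 92 bp beyond Rps18. When regions within 2 kb of any other protein-coding start were left out, a 3′ region remained in 15 of 80 genes (18.8%, interval 10.9 to 29%), beside 1.75% of all protein-coding genes. The region beyond Rpl10 had its nearest other start 8483 bp away, that beyond Rps9 12510 bp away and that beyond Rpsa 16357 bp away.

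The sequence in the middle of 2 of these long 3′ regions is shown, because no ETS pattern occurs there. Each line gives the central 120 bases on the strand of the gene in GRCm38, in lower case throughout. GC content was 53.3% at Rpl10a and 40% at Rps9. Of the 24 regions, 1 had the ETS pattern within the 500 bp around the midpoint (4.17%, interval 0.105 to 21.1%), compared with 8.61% of the 569 Etv4 regions at 3′ ends of all protein-coding genes. The AP-1 pattern TGACTCA, searched on both strands because AP-1 sites are known neighbours of ETS sites, occurred in 0 of 24 (interval 0 to 14.2%), compared with 16% (interval 13.1 to 19.3%) at all 3′ ends and 37.4% of the nuclear Etv4 list.
Rpl10a chr17:28331319-28331438 plus strand: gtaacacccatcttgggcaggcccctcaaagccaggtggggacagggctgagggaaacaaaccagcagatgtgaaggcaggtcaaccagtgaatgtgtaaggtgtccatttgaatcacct
Rps9 chr7:3707812-3707931 plus strand: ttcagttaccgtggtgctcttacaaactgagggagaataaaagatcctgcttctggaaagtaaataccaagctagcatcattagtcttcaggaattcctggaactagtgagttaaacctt

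**Figure D3:**
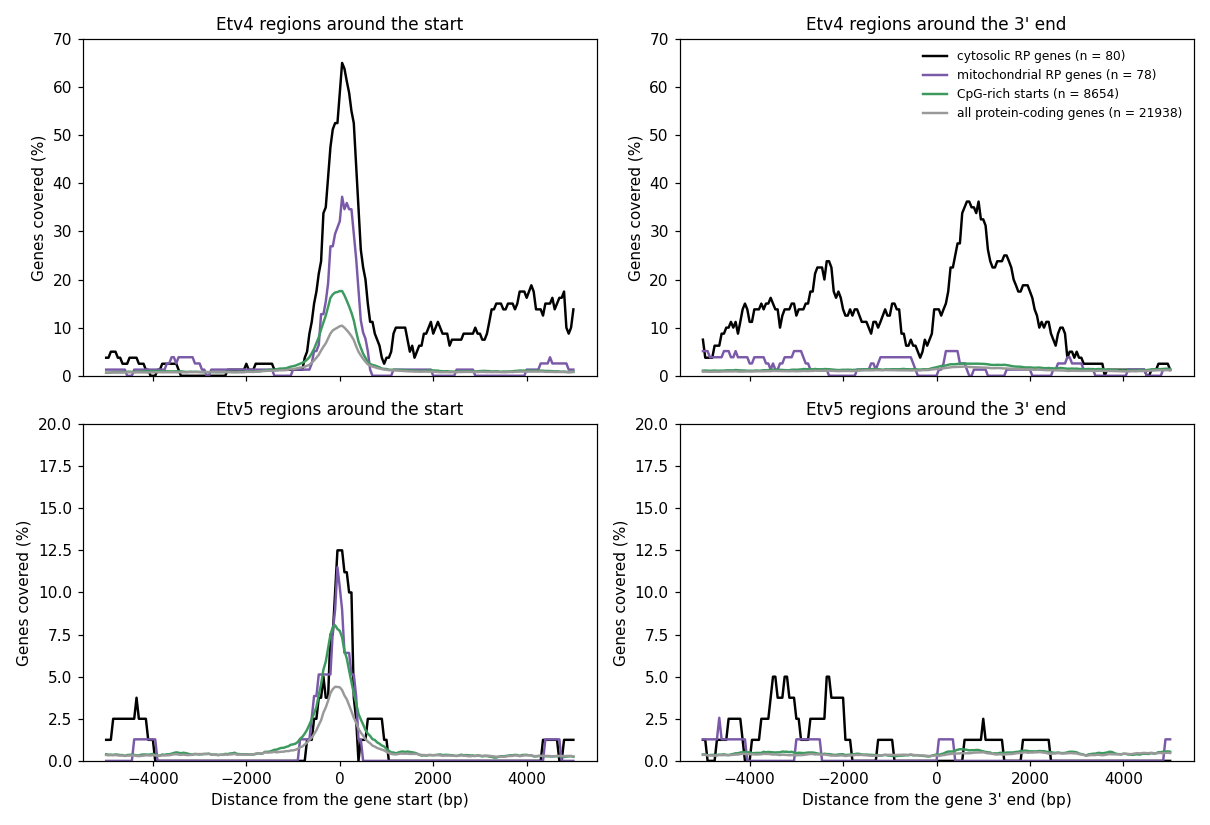
Share of genes (y axis, %) in which an Etv4 region (top) or an Etv5 region (bottom) covers each position around the gene start (left) and the 3′ end (right), at steps of 50 bp over 5 kb on either side (x axis, bp, negative upstream), for 4 gene sets with their numbers in the legend. The y axes differ between the lists. Coverage of the ribosomal protein genes by Etv4 reached 65% at 50 bp past the start and 36.2% at 650 bp past the 3′ end, and by Etv5 12.5% at the start.

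Position by position, Etv4 coverage of the ribosomal protein genes was highest 50 bp past the start, at 65% of genes (52 of 80), compared with 10.4% of all protein-coding genes at the same place. Around the 3′ end it was 13.8% at the end itself, rose to 36.2% (29 of 80) at 650 bp past it, and was above the maximum of 1.92% that all protein-coding genes reached at 600 bp. Mitochondrial ribosomal protein genes had a maximum of 37.2% at 50 bp past the start, with 32.1% at the start itself, and a maximum of 5.13% past the end. Etv5 coverage reached 12.5% at the start and 2.5% past the end.

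Within the genes, Etv4 regions covered 10.9% of the 355758 bp spanned by the 80 genes, compared with 0.436% of the span of all protein-coding genes, and Etv5 regions covered 1.39%, compared with 0.215%. The median gene had 11.7% of its span covered by Etv4. The median span was 3328.5 bp, and the shares over all protein-coding genes were not matched for span.

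Regions in the body, that is inside the gene and outside both zones, were found in 8 of 80 genes for Etv4 (10%, interval 4.42 to 18.8%), beside 11.2% of all protein-coding genes and 1.52% of genes with a span of 1 to 10 kb, which lies below the interval. For Etv5 they were found in 2 of 80 (2.5%, interval 0.304 to 8.74%), beside 8.36% of all protein-coding genes and 0.567% of genes of 1 to 10 kb, and the interval includes both values. The 80 genes were not limited to that span. Rpl3, Rps14 and Rps15a with Etv4, and Rpl11 and Rps14 with Etv5, are longer than 10 kb. Of the 80 genes, 34 are too short to have such a part. Among the other 46, Etv4 was in the body of 17.4% (interval 7.82 to 31.4%), beside 12.5% of the 19507 protein-coding genes that have one, and Etv5 in that of 4.35% (interval 0.531 to 14.8%), beside 9.4%. Both of these shares over all genes lie inside the intervals. The genes with an Etv4 region in the body were Rpl12, Rpl13a, Rpl18, Rpl23, Rpl26, Rpl3, Rps14 and Rps15a. The longest body region was 1 of 2 in Rpl3 (994 bp, chr15:80079172-80080165), followed by that of Rpl18 (866 bp, chr7:45717523-45718388), whose midpoint lies 47 bp from the start of Sphk2. The Etv5 regions in the body belonged to Rpl11 (347 bp) and Rps14 (379 bp), and neither overlapped Etv4. Those of Rps14 lie 11828 bp (Etv5) and 22608 bp (Etv4) upstream of the start used, within an annotated span that reaches far beyond it.

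The ETS pattern itself was more frequent at these starts than at others. In the 300 bp from 250 before to 50 after the start, 19 of 80 genes carried CAGGAAGT or CCGGAAGT on either strand (23.8%, interval 14.9 to 34.6%), compared with 8.18% of all protein-coding genes and 10.4% of those with a CpG-rich start. Of the 40 ribosomal protein genes with a CpG-rich start, 13 carried it (32.5%, interval 18.6 to 49.1%). The same patterns written backwards, of equal base composition, were present in 2 of 80 (2.5%, interval 0.304 to 8.74%), compared with 1.84%. Backwards, CCGGAAGT loses its CpG, so these patterns are not matched for CpG. At CpG-rich starts CCGGAAGT was present in 8.37%, compared with 5.03% of all protein-coding genes, and the backwards patterns in 1.51%. Mitochondrial ribosomal protein genes carried the ETS pattern in 15 of 78 windows (19.2%, interval 11.2 to 29.7%). The 19 genes held 21 occurrences, of which 15 were CCGGAAGT and 6 CAGGAAGT, 13 lay on the strand of the gene, and 18 began within 100 bases of the start.

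The pattern did not sort the genes with an Etv4 region from those without. It was present in 12 of 59 genes with Etv4 at the start (20.3%, interval 11 to 32.8%) and in 7 of 21 genes without (33.3%, interval 14.6 to 57%), whereas over all protein-coding genes it was present in 13.6% of those with Etv4 (interval 12.4 to 14.8%) and 7.18% of those without (interval 6.82 to 7.56%). Put the other way, 12 of the 19 genes with the pattern had Etv4 (63.2%, interval 38.4 to 83.7%) and so did 47 of the 61 genes lacking it (77%, interval 64.5 to 86.8%). The shorter core GGAAGT was present in 50% of the 80 genes, against 24.8% of all protein-coding genes.

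Occurrences that lay inside an Etv4 region are printed for 4 genes as 30 bases each, because they are the places where region and pattern coincide, and capitals again mark the pattern, read as ACTTCCTG or ACTTCCGG where it lies on the opposite strand. There were 12 of them in 10 genes. Those of Rps6 and Rpl37 stand in the promoter sequences above.
Rps26 chr10:128626739-128626768 minus strand: gccttgtaatcACTTCCTGgtttgggaatg
Rps27l chr9:66946084-66946113 plus strand: ccgcctctatcCCGGAAGTtgctgaggggc
Rpl26 chr11:68901559-68901588 plus strand: aacttacagaaCCGGAAGTcgcgtgtagtt
Rps18 chr17:33955804-33955833 minus strand: agaaggccgaaCCGGAAGTtatagctccgg
Rps18 chr17:33955722-33955751 minus strand: agaagcaatttCCGGAAGTggacctccggg

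In these genes the pattern began 10 bases upstream of the start in Rps26, 9 bases downstream in Rps27l and 13 bases upstream in Rpl26. It began 46 bases upstream in Rps6, at both 55 and 22 bases upstream in Rpl37, at 145 and 63 bases upstream in Rps18 and 137 bases upstream in Rplp1. Only that of Rps6 also lay inside an Etv5 region. At Rpl34 and Rplp2 the pattern was in the start window and outside the Etv4 region of the gene.

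The 7 genes with the pattern and without an Etv4 region at the start were Rpl11, Rpl31, Rpl32, Rps3, Rps13, Rps27 and Rpsa. That of Rpsa stands above. Those of Rpl11 and Rpl31 are shown for comparison with the occurrences inside regions, and they carry the same 8 letters.
Rpl11 chr4:136053369-136053398 minus strand: aggccacggggCCGGAAGTctccctctctc
Rpl31 chr1:39367848-39367877 plus strand: ctccccgtgacCCGGAAGTtgtacggctac

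Counted by region, 16 of the 72 Etv4 regions at these starts had the ETS pattern within the 500 bp around the midpoint (22.2%, interval 13.3 to 33.6%), compared with 15.4% of Etv4 regions at all protein-coding starts (interval 14.2 to 16.7%). The intervals overlap. The AP-1 pattern TGACTCA was present in 3 of 72 (4.17%, interval 0.868 to 11.7%), compared with 11.6% at all protein-coding starts (interval 10.6 to 12.8%), and these intervals overlap too. Those 3 regions belonged to Rpl8, Rpl9 and Rps27a. Of the 14 Etv5 regions, 4 had the ETS pattern (28.6%, interval 8.39 to 58.1%) and 2 had AP-1 (14.3%, interval 1.78 to 42.8%), compared with 11.7% and 12.6% of Etv5 regions at all protein-coding starts, which both lie inside those intervals.

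**Figure D4:**
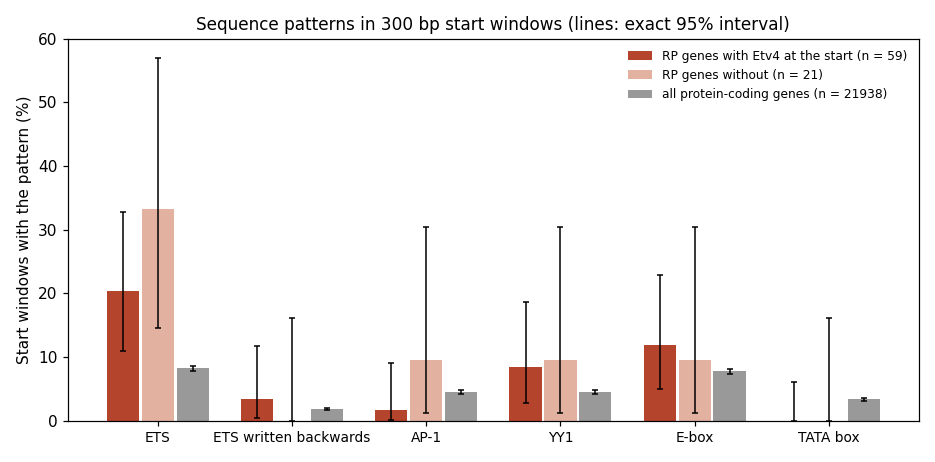
Share of start windows of 300 bp (y axis, %) that hold each pattern (x axis), for the 59 ribosomal protein genes with an Etv4 region at the start, the 21 without and all 21938 protein-coding genes, with exact 95% intervals as lines. The ETS bars stand at 20.3%, 33.3% and 8.18%, and the other patterns are below 12% in every set.

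Other promoter patterns were searched in the same windows. YY1 (AAGATGGC or AAAATGGC, both strands) was present in 7 of 80 genes (8.75%, interval 3.59 to 17.2%), compared with 4.49% of all protein-coding genes, and the E-box CACGTG in 9 of 80 (11.2%, interval 5.28 to 20.3%), compared with 7.72%. AP-1 was present in 3.75% and 4.49%. The TATA box TATAAA, searched on the strand of the gene in the 50 bases upstream of the start, occurred in 0 of 80 (interval 0 to 4.51%), compared with 3.32%. For all 4 patterns, the share over all protein-coding genes lay within the interval of the ribosomal protein genes.

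A start tract, defined as a C at the annotated start followed by at least 4 pyrimidines, was present in 8 of 80 genes (10%, interval 4.42 to 18.8%), compared with 2.28% of all protein-coding genes. When the tract could begin within 5 bases of the start, the share was 28.8% (interval 19.2 to 40%), compared with 18.3%. The annotated starts limit this count, since 41 of the 60 genes found in the RefSeq promoter table had a RefSeq start within 50 bp of the one used. Of the 8 genes, 7 had Etv4 at the start and 0 had Etv5. The tracts of Rps24 and Rpl4, with 17 and 8 pyrimidines in a row, belong to genes with an Etv4 region over the start, and that of Rpl32, with 14, to a gene without one. Those of Rps24 and Rpl4 are printed with 15 bases on either side of the border, in GRCm38, and capitals mark the pyrimidines from the start on.
Rps24 chr14:24490703-24490732 plus strand: cggcagtgagcggtcCTCTTTTCCTCCTCT
Rpl4 chr9:64173360-64173389 plus strand: agtgacaagtctttcCTTTTCCTgtgggag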

How the data were processed

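ChIP-seq was carried out on 1 library per antibody (Etv4, Etv5), with 15 PCR cycles. The authors called regions per library with CisGenome in its one-sample mode, without a control library, at a p threshold of 0.1 in windows of 300 bp. The deposited BED lists give positions in mm10, a region number whose criterion is not stated, and a score of 1000 for every region, which was not used. The submitters' processing notes name Bowtie. The paper names bowtie2 for its chromatin accessibility libraries, and states that library construction and ChIP-seq were done likewise. A version number is not given in the sources used here. The depth is unknown, which limits what a missing region shows.

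Starts were 5′ ends of 1 representative GENCODE M21 transcript per gene (APPRIS level, then transcript support, then coding length). Patterns were searched in GRCm38. CpG-rich starts had at least 55% GC and a CpG ratio of at least 0.6. The members, gene lists and patterns were chosen with earlier results of these data known. Genes were named by overlapping pairs, ETS pattern inside a start region, and 3′ or body regions by length. Rps15a, Rps16, Rpl31, Rpl39 and the other genes singled out in the text were chosen after their values were seen. Some genes are counted and not reported by name here. Functions were tested on simulated data. Python 3.11.15, numpy 2.4.6, scipy 1.17.1, numba 0.67.0 and matplotlib 3.10.9 were used.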

Additional observations from a re-analysis of the deposited data

How the results depend on the processing

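Of the recomputed shares, 46 under the main set of alternatives (distance, start, rule of contact, list, members, window and pattern) and 4 under alternatives chosen after seeing the data (the end of the representative transcript, a wider 3′ zone, distance from other starts, a looser start tract) stayed within the interval of the reported value, and 12 and 3 did not. Another 3 and 5 changed the background alone, which leaves the share of these genes as it is. With the longer 50% of each list, the share with a region at the start was 36.2% for Etv4 (all protein-coding genes 7.4%), 6.25% for Etv5 (3.65%) and 3.75% for both (1.74%). The Etv5 share at the 3′ end was then 0% (0.406%), and the body shares were 3.75% for Etv4 (6.66%) and 0% for Etv5 (4.78%). With a region covering the start base, the share was 58.8% for Etv4 (10.3%) and 8.75% for both (2.18%). With equal numbers of regions it was 45% for Etv4 (9.14%). The Etv4 share at the 3′ end was 45% within 2 kb of the end (4.67%) and 18.8% beyond 2 kb from other starts (1.75%), both added afterwards. The ETS share at the starts was 50% with GGAAGT (24.8%) and 2.5% with the patterns written backwards (1.84%). That of Etv4 start regions was 8.33% in 200 bp, close to the 7.6% of Etv4 regions at all protein-coding starts. Start tracts within 5 bases of the start, added afterwards, were at 28.8% (18.3%). With shorter lists and narrower windows, lower values follow from the setting itself. No paired analysis was possible because there was just 1 library of each kind. With no read counts, an absent region was not detectable as such at an unknown depth, and no control library was analysed here.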
